A study of Mus musculus with 2 samples.

Results

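The cells described here are the S-phase cells of a pooled single-cell RNA library, chosen by the RNA of 12 replication genes. A score R was computed for each cell as the UMIs (unique molecular identifiers, 1 per captured RNA molecule) of Mcm2 to Mcm7, Pcna, Tyms, Rrm2, Gins2, Dtl and Cdc6 per 10000 UMIs of that cell. A mitotic score M was computed in the same way from Cdc20, Ccnb1, Plk1, Aurka, Cenpa, Cenpf, Ube2c, Hmmr, Tpx2 and Cenpe. Ranking was over cells that held 2000 UMIs and 1000 genes or more and no more than 15% mitochondrial UMIs. The top 10% by R, without cells in the top 10% by M, were taken as S-phase cells. They numbered 2121 of 21361 cells (9.93%), and were compared with the other 19240. The name rests on RNA alone, since DNA content was not used here.

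The cells came from KPCY 6419c5, a mouse line of pancreatic ductal adenocarcinoma. They carried BASELINE, a lineage recorder in which a Cas12a adenine base editor (Cas12a-ABE) makes A-to-G changes over time. Clones 76 and 84, each grown from 1 sorted cell after transfection with Cas12a-ABE, were mixed 1:1 after 19 days of editing and read with the 3′ v4 droplet chemistry. Another sample of the series pooled clones 1, 32, 33, 52 and 76, and it was not analysed here. Editing and transfection were shared by all cells compared, there was no unedited group, and no label used here tied a cell to its clone. With 1 library there was no test between conditions, so no p-value is given. Intervals are exact 95% limits (Poisson for levels, binomial for shares and for ratios of levels) and cover counting error only.

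Before S phase, origins of replication are licensed by the origin recognition complex, Cdc6 and Cdt1, which load the Mcm2-7 helicase. E-type cyclins with Cdk2 and the E2F transcription factors then turn on genes for the polymerases, the sliding clamp Pcna and the enzymes of nucleotide supply, and new DNA is packed with histones made during replication. Cyclin A and then cyclin B genes follow, and mitotic genes such as Plk1 and Aurka peak as cells divide. Tumours of the pancreatic duct commonly carry lesions in genes that restrain this G1/S switch.

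S-phase cells were shallower than the rest, with a median of 4402 UMIs and 2094 genes against 5053 UMIs and 2228 genes. The median mitochondrial share was 2.81% in S-phase cells and 2.42% in the other cells. Of the S-phase cells, 41 (1.93%, interval 1.39 to 2.61%) were marked as doublets, against 3.49% of the other cells, and marked cells were kept. Ductal keratins were abundant: Krt18 was at 1611 CPM (UMIs scaled to a total of 1000000) in S-phase cells and 2166 in the others, and Krt8 at 1041 and 1244. Krt19 and Krt7 are given further on. Epcam, another marker of the labelled cell type, was at 60.3 CPM in cluster 2, described further on. In the cells of all other clusters it was at 4.66 CPM. Summed markers of 6 other cell types lay between 0.2 and 10.6 CPM in S-phase cells and between 0.0663 and 9.04 CPM in the others, and none of their genes reached 50 CPM. The highest list was the acinar one, with 4 of 6 genes seen. The fibroblast markers Col1a2, Dcn and Lum had 0 UMIs, and the other 4 of the 7 together had 14 UMIs in S-phase cells and 155 in the others.

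The rule itself fixes the level of the 12 genes, so their values describe the cells and support nothing. Together they were at 2787 CPM (2754 to 2820) in S-phase cells and 1108 CPM in the others. Cdc6, which loads the helicase, was at 98.8 against 30.1 CPM, the highest ratio of the 12 at 3.29. Mcm5, a helicase subunit, was at 140 against 49.6 CPM. Pcna, the clamp that holds the polymerases on DNA, was at 365 against 134 CPM. Gins2, part of the active helicase, was at 110 against 51.5 CPM. Rrm2, the small subunit of ribonucleotide reductase, was at 464 against 213 CPM, and thymidylate synthase Tyms was at 230 against 108 CPM, the lowest ratio at 2.13. The R UMIs were spread over the genes: after each cell was thinned to 3000 UMIs, the median S-phase cell showed 6 of the 12 genes and the median other cell 3.

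The border of the group was not a gap. The lowest S-phase cell had an R of 23.12 and the highest cell outside also rounded to 23.12. The 5 cells just inside held 9 to 12 R UMIs in 3892 to 5185 UMIs, and the 5 just outside held 5 to 12 in 2163 to 5191. Within 2 units of R above the border lay 672 S-phase cells, and within 2 units below it lay 847 other cells. Of the 2136 cells in the top 10% by R, 15 were also in the top 10% by M and were left out.

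**Figure D1:**
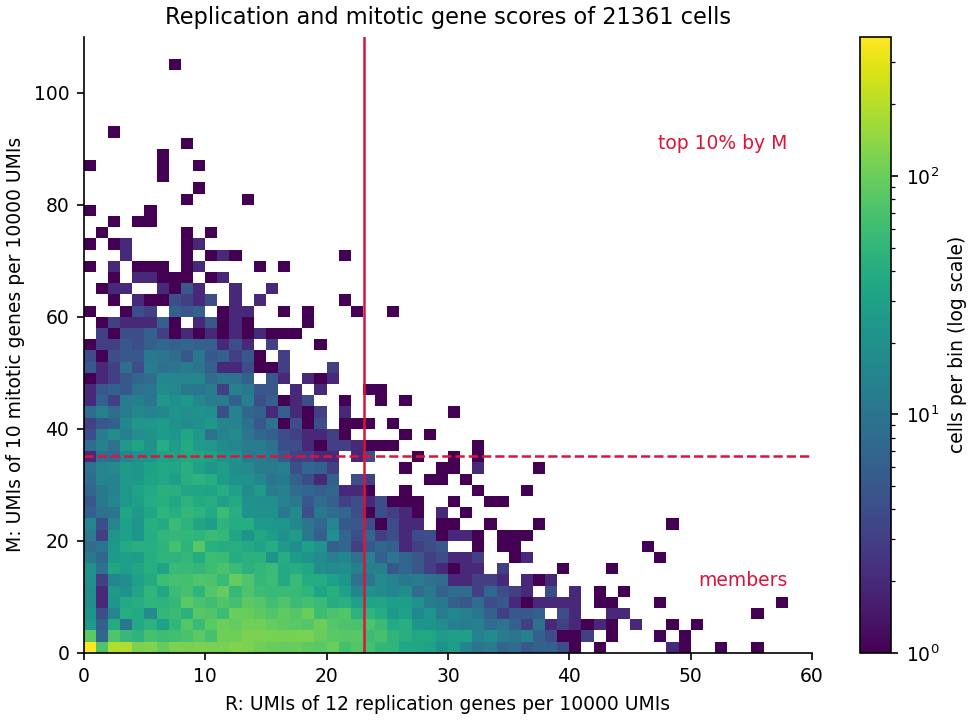
Each coloured bin counts cells (log colour scale) by R on the horizontal axis and M on the vertical axis, both in UMIs per 10000 UMIs; the solid line is the lowest R of the top 10% and the dashed line the lowest M of its top 10%. The 2121 S-phase cells fill the lower right field, cells run across the solid line without a break, and the upper right field holds 15 cells.

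Because the 12 genes chose the cells, 6 of them were also read in cells chosen by the other 6. In 2112 cells chosen by Mcm2, Mcm4, Mcm6, Pcna, Rrm2 and Dtl, the other 6 genes summed to 777 CPM against 487 CPM, a ratio of 1.60 (1.56 to 1.63). The choosing genes themselves gave a ratio of 2.86 in these cells. In the reverse direction, with 2085 cells, the ratio was 1.53 (1.503 to 1.57), against 3.09 for the choosing genes. The 6 genes not used in the choice were thus higher in the chosen cells both ways, by less than the genes that chose them. Read in this way, Cdc6 kept the highest ratio, 2.27 (2.10 to 2.46), and Mcm5 was at 1.81. Rrm2 and Tyms were the lowest, at 1.28 and 1.31.

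Stretches of promoters are shown for 5 of the R genes because they carry the letters that E2F factors are known to bind, and for 2 of the M genes for contrast. They come from RefSeq on build GRCm38.p6, whereas the counts were made on GRCm39, per the submitters' processing notes. Windows ran from 250 bases before the gene's start to 50 bases after it. Each sequence reads 5′ to 3′ on the gene's own strand and lies wholly before the start. Capitals mark the E2F letters, searched on both strands as TTTCCCGC, TTTGGCGC, TTTCGCGC or TTTGCCGC, which can overlap one another. In Mcm5 (chr8:75109326-75109397, plus strand) and in the upstream copy of Mcm6 (chr1:128359715-128359845, minus strand), matches on opposite strands overlap. In the stretches of Cdc6 (chr11:98907983-98908050, plus strand), Dtl (chr1:191575545-191575582, minus strand) and Mcm7 (chr5:138172011-138172078, minus strand) there is 1 match. The window of Mcm7 held a further match after the start, which is not shown. For the M genes Cdc20 (chr4:118437344-118437391, minus strand) and Ube2c (chr2:164769870-164769928, plus strand), capitals mark the CHR letters TTTGAA or TTCGAA, searched on both strands, an element known from genes of late cell cycle. The Mcm7 stretch also holds the CHR letters TTCGAA, left in small letters before its capitals.
Mcm5: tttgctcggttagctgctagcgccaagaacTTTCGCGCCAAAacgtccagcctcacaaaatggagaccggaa
Mcm6: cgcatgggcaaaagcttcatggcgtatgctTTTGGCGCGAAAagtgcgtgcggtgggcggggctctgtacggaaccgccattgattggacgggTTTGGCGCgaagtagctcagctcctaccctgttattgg
Cdc6: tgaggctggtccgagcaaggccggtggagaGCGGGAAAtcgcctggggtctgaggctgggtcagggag
Dtl: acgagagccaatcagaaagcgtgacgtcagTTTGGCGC
Mcm7: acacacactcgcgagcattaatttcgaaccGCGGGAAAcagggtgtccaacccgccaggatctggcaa
Cdc20: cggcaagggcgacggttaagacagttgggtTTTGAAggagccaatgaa
Ube2c: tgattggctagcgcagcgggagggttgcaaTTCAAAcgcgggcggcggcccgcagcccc

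E2F letters stood in the windows of 6 of the 10 R genes found in the table (Mcm3, Mcm5, Mcm6, Mcm7, Dtl and Cdc6) and in 0 of 9 M genes. Of all 27025 genes in the table, 2.61% held them. CHR letters stood in 2 of the 10 R genes, in 7 of the 9 M genes and in 21.7% of all genes. The pentamer CCAAT, also searched on both strands, stood in 8 of 10 R genes, 9 of 9 M genes and 41.1% of all genes. Among 89 replication genes outside the rule, described next, 76 were in the table and 22 of them (28.9%) held E2F letters. For the 32 G2/M genes outside the rule, 28 were in the table, of which 19 held CHR letters and 1 held E2F letters. These are matches of letters in a window and not measured binding. Mcm4, Gins2 and Tpx2 were not among the matched entries.

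The S-phase cells were next compared with the others over all genes, and then in genes that took no part in the choice. A gene was called higher or lower when its CPM differed by 1.5-fold or more and reached 50 CPM in S-phase cells or in the others. Of 3653 genes at that level, 92 (2.52%) were higher and 36 (0.985%) were lower in S-phase cells, together 128 (3.5%), and the median log2 ratio was 0.03. All 12 R genes were among the 92 and all 10 M genes among the 36, and both sets were used by the rule. The 4 lists of replication genes outside the rule, with 89 genes in all, summed to 12405 CPM in S-phase cells and 10254 CPM in the others, a ratio of 1.21 (1.203 to 1.217). The sum differed by much less than that of the 12 R genes. Over all 89 genes with no minimum, 85 had a higher CPM in S-phase cells, against 10432 of the 22772 genes with a UMI. S-phase cells held 9987336 UMIs in all and the others 105578322. A gene with few UMIs can thus have 0 in S-phase cells and count as not higher, so the 2 counts are not strictly alike. Of the 89 genes, 62 reached 50 CPM, and of these 22 were higher and 1 was lower. A gene that reached 50 CPM only in S-phase cells lay above a ratio of 1 by that fact, so counts of called genes in this and the other lists are descriptions. Such genes were 16 of the 62 and 12 of the 22 called higher, and over all genes they were 247 of the 3653 and 49 of the 92.

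Genes of the G1/S switch had some of the largest ratios. Cyclin E1 (Ccne1), which with Cdk2 drives entry into S phase, was at 86.5 CPM (80.8 to 92.5) in S-phase cells and 33.2 in the others, a ratio of 2.61. Cyclin E2 (Ccne2) was at 54.8 against 24.8 CPM, a ratio of 2.21. E2f8, a repressor that is itself switched on in S phase, was at 55.3 against 25.9 CPM, a ratio of 2.13. Both E-type cyclins and E2f8 were thus at more than 2 times the level of the other cells in the pooled comparison. Fbxo5, which holds back the anaphase-promoting complex, was at 152 against 91.8 CPM. Of the list's 14 genes, 6 reached 50 CPM and these 4 were called higher. Ccne1, Ccne2 and E2f8 reached 50 CPM only in S-phase cells. With no minimum, 13 of the 14 had a higher CPM in S-phase cells. Inside the expression groups, described further on, 4 of 7 genes at 50 CPM were called higher in group 1 and 2 of 5 in group 2. The 2 in group 2 were Ccne1 and Ccne2, so E2f8 and Fbxo5 were not called there. The activator E2f3 was at 59.5 against 46.4 CPM, a ratio of 1.28. Cyclin A2 (Ccna2), the S and G2 cyclin, went the other way, at 110.5 against 141 CPM, a ratio of 0.78.

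Shares of cells with a UMI gave the same order for Ccne1. In cells thinned to 3000 UMIs, 23.1% (21.3 to 24.99%) of 2052 S-phase cells and 9.67% of 18307 others had a Ccne1 UMI. Without thinning the shares were 32.3% and 15.2%, at median depths of 4402 and 5053 UMIs. All cells came from 1 line, so there was no cell type that should lack the gene and could set the level of free RNA. For Ccne2 the thinned shares were 14.8% and 7.30%, and for E2f8 they were 14.6% and 7.69%. Thinning left out 69 S-phase cells and 933 others.

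Licensing and firing genes summed to 1451 against 1012 CPM, a ratio of 1.43, and 3 of 9 at 50 CPM were called higher with none lower, 2 of the 3 having reached 50 CPM only in S-phase cells. Cdt1, which brings the helicase to origins, was at 81.7 against 45.4 CPM (ratio 1.80). Cdc45, which joins the helicase when origins fire, was at 61.5 against 35.8 CPM. Orc6, of the origin recognition complex, was at 374 against 224 CPM. Geminin (Gmnn), the inhibitor of Cdt1, had a ratio of 1.43, below the fold. Dbf4, which activates the kinase Cdc7, was the only one of the 9 with a ratio under 1, at 103 against 116 CPM.

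Genes of the polymerases and the replication fork summed to 2582 against 1842 CPM, a ratio of 1.40, with 12 of 24 called higher, 8 of them at 50 CPM only in S-phase cells, and 1 lower. The highest ratio of those at 50 CPM was that of Clspn (claspin, a fork and checkpoint protein) at 94.2 against 46.8 CPM, a ratio of 2.01 (1.88 to 2.16). Below 50 CPM, Dscc1, of the complex that loads Pcna, was at 27.5 against 12.7 CPM, a ratio of 2.16 (1.89 to 2.47). The catalytic subunit Pola1 was at 107 against 58.3 CPM and the unloader of Pcna, Atad5, at 91.3 against 49.8 CPM. DNA ligase Lig1 was at 169 against 105 CPM. Pold4, a small subunit of polymerase delta, was the 1 gene called lower, at 41.7 against 65.1 CPM, a ratio of 0.64. Its ratio was 0.96 within expression group 1 and 0.84 within group 2, the groups being described further on, so the call was made only when both were pooled.

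Nucleotide supply summed to 3178 against 2786 CPM (ratio 1.14), and 0 of 15 genes passed the fold. Dut, which clears dUTP, was at 309 against 225 CPM, and thymidine kinase Tk1 at 151 against 124 CPM. Nme1, a nucleoside diphosphate kinase, was at 820 against 886 CPM. With no minimum, 17 of the 18 genes of the list had a higher CPM in S-phase cells. The list asked for 1 further gene, Ctps1, whose symbol was not matched among the features.

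Chromatin genes summed to 5195 against 4613 CPM, a ratio of 1.13, and 7 of 14 were called higher, 2 of them at 50 CPM only in S-phase cells. The sum was dominated by the histone variant H2az1, at 3016 against 3089 CPM. Uhrf1, which guides DNA methylation to new strands, was at 139 against 64.4 CPM, a ratio of 2.15 (2.03 to 2.28). Chaf1b, of the histone chaperone CAF-1, was at 88.1 against 42.1 CPM. Slbp, which binds the ends of histone mRNAs, was at 138 against 78.7 CPM. These 3 genes were above their level in other cells by more than the fold, while H2az1 was near it and the FACT subunits Ssrp1 and Supt16 had ratios of 1.11 and 1.14.

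Histone genes tied to replication summed to 2474 CPM in S-phase cells and 1477 in the others, a ratio of 1.68 (1.65 to 1.70). Of 66 such genes 10 reached 50 CPM, of which 6 were called higher, 3 of them at 50 CPM only in S-phase cells, and 0 lower. With no minimum, 57 of the 63 with a UMI had a higher CPM in S-phase cells. Their mRNAs mostly lack the poly-A tails that this chemistry captures, and near-identical copies can share reads, so single genes are uncertain. Linker histone H1f5 was at 788 against 399 CPM (ratio 1.98), H1f4 at 413 against 246 CPM and H1f1 at 136 against 65.1 CPM (ratio 2.08). By class, the ratio of the sums was 1.83 for H1, 1.57 for H2A, 1.31 for H2B, 1.60 for H3 and 1.44 for H4. The one gene at 50 CPM with a ratio below 1 was H2bc4, at 59.9 against 61.7 CPM.

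Repair and checkpoint genes summed to 1116 against 739 CPM, a ratio of 1.51, with 7 of 10 called higher and none lower. All 7 reached 50 CPM only in S-phase cells, and with no minimum all 20 genes of the list had a higher CPM there. The mismatch repair gene Msh6 was at 86.2 against 43.9 CPM, a ratio of 1.96. Exo1, a nuclease of the same pathway, was at 55.5 against 28.9 CPM. Brca1, which acts in homologous recombination, was at 61.1 against 32.1 CPM. Ung, which removes uracil from DNA, was below 50 CPM but had the list's largest ratio, 2.60 (2.23 to 3.02), from 217 UMIs in S-phase cells, or 21.7 against 8.35 CPM.

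**Figure D2:**
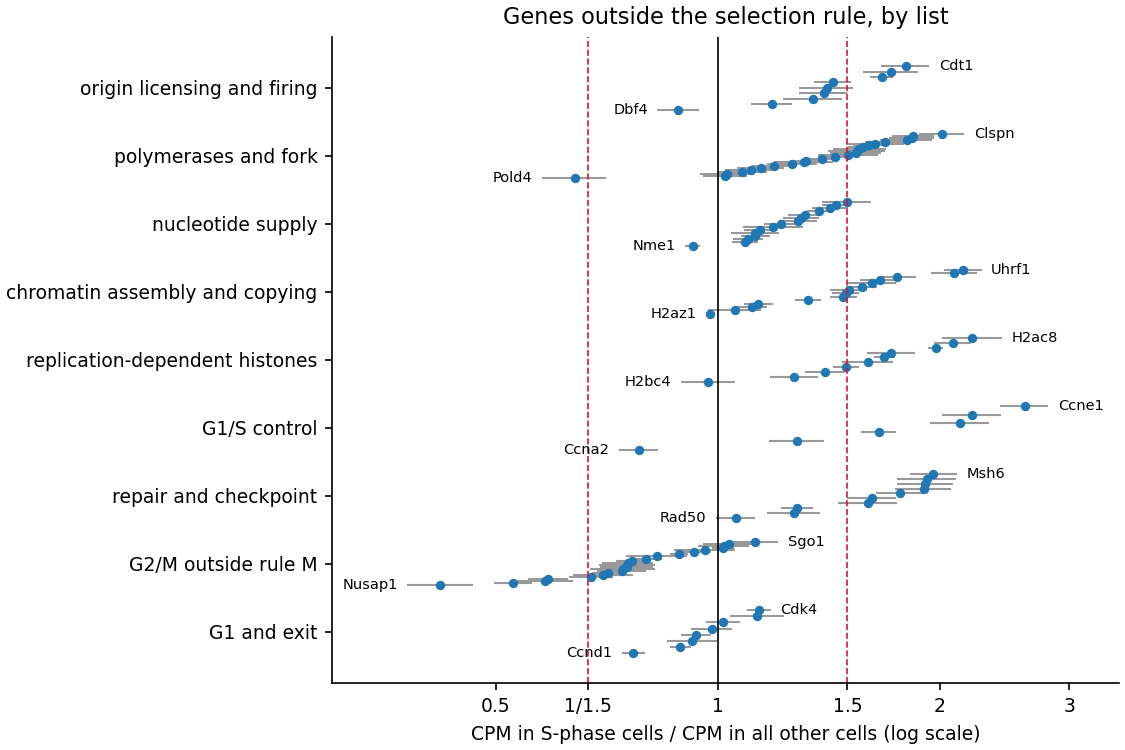
Points are single genes outside the rule that reached 50 CPM, placed on the log-scaled horizontal axis by their CPM in S-phase cells over that in all other cells, with grey 95% counting intervals; red dashed lines mark 1.5-fold in either direction and most genes at the ends of the lists are named. Ccne1 lies farthest right at 2.61 and Nusap1, of the G2/M list, is at 0.42; genes that reached 50 CPM only in S-phase cells lie right of 1 by that fact.

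Among genes at 50 CPM and outside R and M, the 10 highest ratios held 3 genes of none of the lists. Slfn9, of the Schlafen family, was at 156 against 62.4 CPM, a ratio of 2.49 (2.36 to 2.64), though its relatives are similar in sequence and reads may be shared. Tcf19, a gene known to rise at the G1/S border, was at 55.3 against 22.9 CPM, a ratio of 2.42. Neil3, a glycosylase of base excision repair, was at 54.97 against 25.5 CPM, a ratio of 2.16. Of these 3 genes, only Slfn9 was called higher within both expression groups, which are described further on. The other 7 were Ccne1, H2ac8, Ccne2, Uhrf1, E2f8, Chaf1b and H1f1. Of the 92 genes called higher, 51 belonged to a cell-cycle list or to R.

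The summed levels of mitotic genes were lower in S-phase cells, though 18 of 22 G2/M genes outside the rule stayed within the fold. The 10 M genes, which are part of the rule, summed to 695 against 1639 CPM, a ratio of 0.42. G2/M genes outside the rule summed to 2831 against 3569 CPM, a ratio of 0.79 (0.78 to 0.80), and 4 of 22 were called lower, 1 of them at 50 CPM only in the other cells, with none higher. These were the spindle genes Nusap1 (38.6 against 91.6 CPM), Prc1 (120 against 228 CPM) and Kif23 (55.8 against 95.5 CPM), and Cks2 (103 against 175 CPM), a partner of the mitotic kinase. With the 15 cells left out by M put back, the ratio was 0.80. Set against the 17104 cells that were in neither top 10%, the list was at 2831 against 3175 CPM, a ratio of 0.89. Mki67, the usual proliferation marker, was near its level in other cells, at 349 against 343 CPM. Top2a, which untangles replicated DNA, was at 541 against 610 CPM, a ratio of 0.89.

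Among genes at 50 CPM and outside R and M, the 10 lowest ratios were those of Aspm (0.38), Sprr1a (0.39), Nusap1 (0.42), Arl6ip1 (0.46), Prc1 (0.53), Cxcl16 (0.54), Tuba1c (0.55), S100a7a (0.56), Smpd3 (0.56) and Tuba1a (0.58). Aspm, a spindle pole gene, was at 19.9 against 52.0 CPM. Tuba1a and Tuba1c are tubulins with near-identical relatives. S100a7a, Smpd3 and Cxcl16 had ratios between 0.75 and 0.97 within each expression group, so their pooled values moved with the mix of groups. Arl6ip1 was at 136 against 299 CPM and held ratios of 0.41 and 0.42 within the groups.

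Genes of G1 and of exit from the cycle were near their level in other cells. They summed to 1816 against 1944 CPM, a ratio of 0.93, and 0 of 8 passed the fold. Cyclin D1 (Ccnd1), which opens the way to E2F, was at 313 against 407 CPM. Cdk4, its kinase, was at 312 against 274 CPM, and the inhibitor gene Cdkn2a at 393 against 441 CPM. Immediate early genes were at 419 against 499 CPM, with 0 of 3 past the fold, and the ratio of their sum was 1.02 within group 1 and 0.95 within group 2. Junb was the lowest of them at a ratio of 0.67.

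Compared with the 2136 cells of the top 10% by M, S-phase cells had 2.33 times the level of replication histones, at 2474 against 1064 CPM. Against the cells in neither top 10% the ratio was 1.61. Ccne2 was at 54.8 CPM in S-phase cells, 3.88 in the top 10% by M and 27.6 in the remaining cells. Ung was at 21.7, 1.11 and 9.33 CPM in the same order. Both genes were thus lowest in the mitotic cells. Replication genes outside the rule followed the same order with a smaller spread, at 12405, 9694 and 10330 CPM.

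All cells were also ranked by R into 10 equal bins, of which the highest holds the S-phase cells. The level of Ccne1 went from 86.1 CPM in the highest bin through 36.4 in the fifth to 12.4 in the lowest. Ccne2 went from 54.4 through 28.5 to 6.10 CPM, and Uhrf1 from 138 through 71.8 to 22.9 CPM. H1f5 went from 788 through 463 to 107 CPM. Each of these 4 genes was lower in every bin than in the one above it. The median depth was 4402 UMIs in the highest bin, 5494 in the eighth and 4080.5 in the lowest, and the share of group 1 cells was 66.2%, 44.1% and 54.7%.

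Genes of later phases had another shape. Ccna2 was at 110.8 CPM in the highest bin of R, at 160 in the eighth and at 116 in the lowest. Cdk1, the mitotic kinase, was at 159 CPM in the highest, 233 in the seventh and 149 in the lowest. Top2a went from 544 CPM through 703 in the seventh to 406. These genes were therefore highest in cells with a moderately low R and lower at both ends. Mki67 was nearly level from the highest bin (352 CPM) to the eighth (371 CPM) and was at 236 CPM in the lowest.

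**Figure D3:**
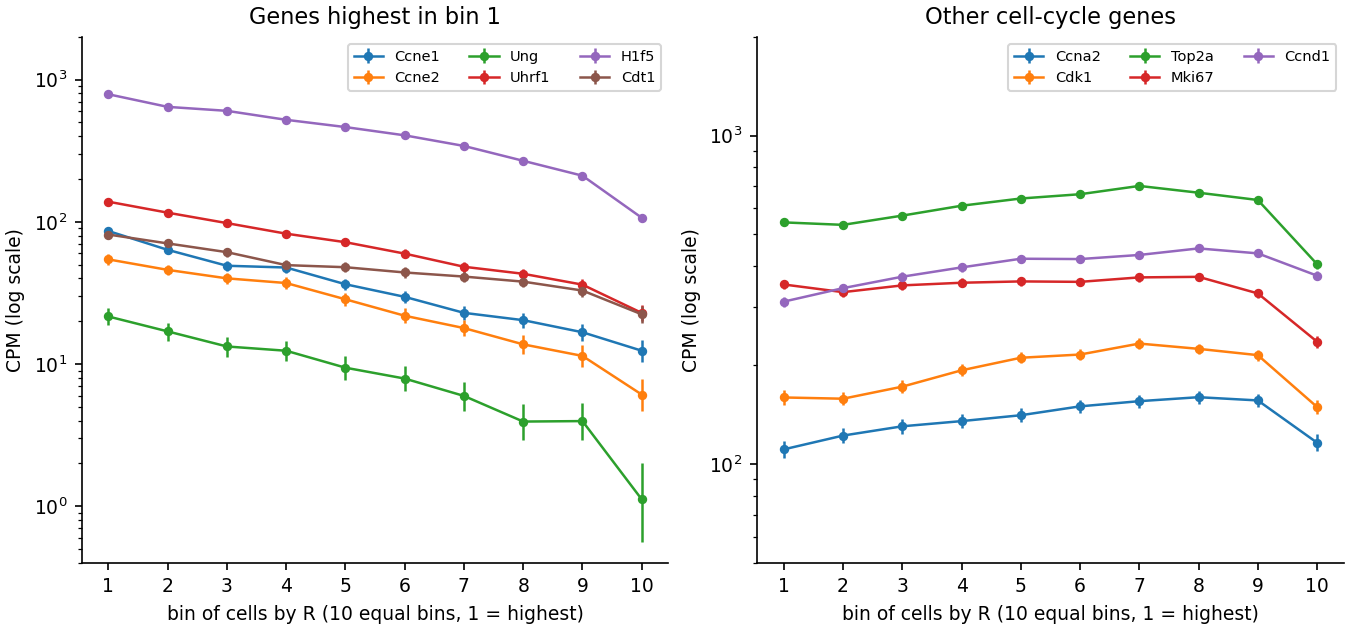
Each line gives the CPM (log scale) of 1 gene, summed over the cells of each bin by R from the highest (1) to the lowest (10), with 95% counting intervals. On the left Ccne1, Ccne2, Ung, Uhrf1, H1f5 and Cdt1 are highest in bin 1, as for Ccne1 at 86.1 CPM against 12.4 in bin 10; on the right Ccna2, Cdk1 and Top2a are highest in bin 7 or 8.

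The pool held 2 main expression groups, found by clustering without cell-cycle, mitochondrial and ribosomal genes; the number 2 was set in advance, and the groups are not labelled clones. S-phase cells made up 1401 of 10344 cells in group 1 (13.5%, interval 12.9 to 14.2%) and 720 of 11017 cells in group 2 (6.54%, interval 6.08 to 7.01%). Group 1 therefore gave 66.1% of the S-phase cells and 46.5% of the others. Depth differed between the groups, with median UMIs of 4504 and 5385. With all cells thinned to 3000 UMIs before the ranking, the shares were 12.9% and 7.24%. With cells of at least 5000 UMIs, 2000 genes and at most 10% mitochondrial UMIs they were 12.6% and 8.36%. The top 10% by M was split in a like way, at 13.3% of group 1 and 6.89% of group 2.

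Of the 4 clusters beneath the groups, cluster 1 of group 1, led by Acta2, Gdf15 and Fn1, had the largest share of S-phase cells, 15.3% of 5388. Cluster 2 of group 1, led by Tm4sf20, S100g and Nepn, had 11.7% of 4956. Cluster 0, led by Mal, Wnt10a and S100a7a, made up most of group 2 and had 6.71% of 10054. Cluster 3 had 4.67% of 963 cells. In that cluster 65.2% of barcodes were marked as doublets and the median was 8431 UMIs, and it was counted in group 2.

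The comparison of S-phase with other cells was repeated inside each group. In group 1, 76 of 3689 genes (2.06%) were higher and 23 (0.623%) lower, or 2.68% in either direction. In group 2, 42 of 3458 (1.21%) were higher and 24 (0.694%) lower, or 1.91% in either direction. Higher in both were 38 of 3053 genes (1.24%), of which 12 were the R genes, and lower in both were 16 (0.524%), of which 9 were M genes and 7 were outside R and M. These 38 genes were 50% of those higher in group 1 and 90.5% of those higher in group 2. Across the 3053 genes the log2 ratios in the groups had a Pearson r of 0.82 and a Spearman rho of 0.63, as a description, since genes are not replicates and R and M enter both.

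Of the 26 higher in both groups outside R, 22 were on the lists above. The other 4 were Atad2, a chromatin ATPase (280 against 148 CPM), Ncapg2, of condensin (66.7 against 35.6 CPM), Fam111a, a protease that works at forks (73.9 against 45.4 CPM), and Slfn9. Slfn9 had a ratio of 2.64 in group 1 and 2.25 in group 2. Ccne1 had 2.37 and 2.33, and Uhrf1 2.07 and 1.80. Ccne2 differed more, at 2.80 (2.46 to 3.19) in group 1 and 1.99 (1.72 to 2.30) in group 2. H2ac8, among the 10 highest when groups were pooled, had 1.70 in group 1 and 1.35 (0.96 to 1.84) in group 2. The ratio of replication genes outside the rule was 1.23 in group 1 and 1.13 in group 2, and that of the histones was 1.57 and 1.45. Of these replication genes, 27 of 65 at 50 CPM were called higher in group 1 and 12 of 57 in group 2. For polymerases and fork alone the counts were 11 of 24 and 5 of 21.

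With the other cells weighted to the mix of groups among S-phase cells, 57 genes (1.56%) were higher and 24 (0.657%) lower, together 2.22%. Of the 92 genes higher in the pooled comparison 56 still passed the fold, and of the 36 lower 20 did. This weighting was added after the values were seen.

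**Figure D4:**
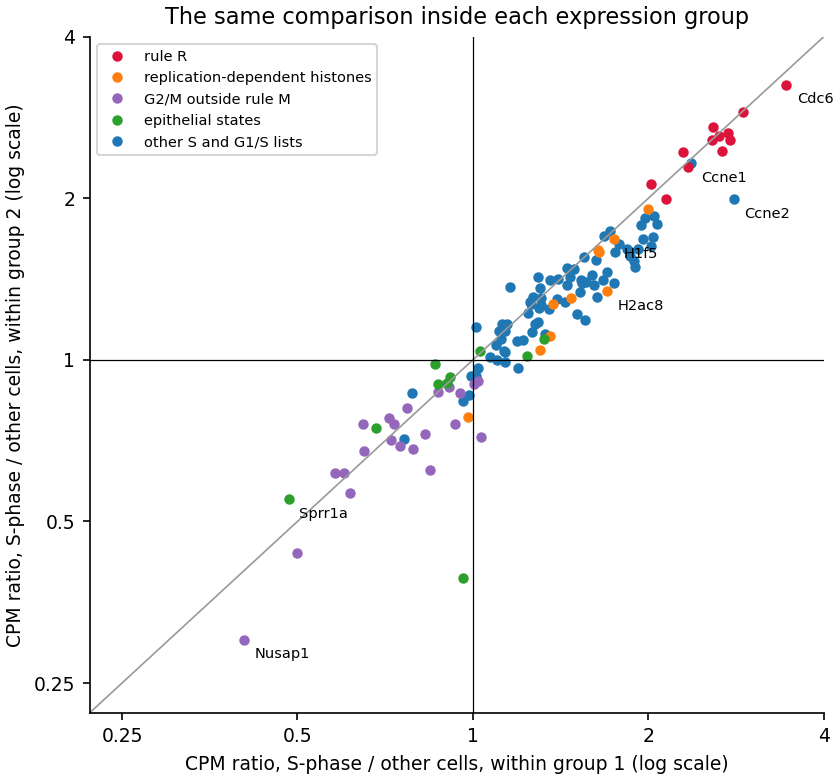
Each point is a listed gene at 50 CPM, placed by its ratio of CPM in S-phase over other cells within group 1 (horizontal) and within group 2 (vertical), both on log scales, with the line of equal ratios in grey. R genes lie at the upper right near the line, Ccne2 lies below it with 2.80 in group 1 and 1.99 in group 2, and Nusap1 lies at the lower left.

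The list of epithelial state genes had a lower sum in S-phase cells when the groups were pooled, and a sum nearer to the other cells within each group. The list was taken with earlier results of these data known, and it summed to 6353 CPM in S-phase cells and 7798 in the others, a ratio of 0.81. Of 10 genes at 50 CPM, 1 was called higher and 2 lower. Within each group the ratio of the sum was 0.95, with 0 of 9 genes called in group 1 and 1 of 9, Sprr1a, called lower in group 2. The gene called higher in the pool was Ptchd4, at 130 against 74.9 CPM, with ratios of 1.24 in group 1 and 1.02 in group 2. Acta2 had 1.33 in the pool, 0.96 in group 1 and 0.39 in group 2, where it was under 50 CPM. Krt19, a ductal keratin, was at 851 against 1156 CPM in the pool, with ratios of 0.87 and 0.90 in the groups, and Krt7 had 0.64 in the pool with 0.86 and 0.98 in the groups. Sprr1a, of the cornified envelope, was low throughout, at 29.1 against 74.8 CPM in the pool and with ratios of 0.48 in group 1 and 0.55 in group 2. Mitochondrial RNA showed a like pattern, with a pooled ratio of 1.08 and ratios of 0.975 and 0.986 in the groups.

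S-phase cells were not uniform in histone RNA and in Ccna2. Those with 3000 UMIs or more were thinned to that number and split into 3 bins of 684 cells by the UMIs of the G2/M genes outside the rule. The summed level of the R genes was nearly the same in the 3 bins, at 2787, 2769 and 2789 CPM from the lowest to the highest G2/M bin. Within that sum, which the rule holds high, the licensing factor Cdc6 was at 127 CPM (115 to 140), 103 and 70.8 CPM (62.1 to 80.4). Dtl, which marks Cdt1 for destruction in S phase, was at 164, 140 and 105 CPM. Cdc6 and Dtl are R genes, so their values across the bins are a description.

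Other genes went the same way or the opposite one. Ccne2 was at 64.9 (56.3 to 74.5), 52.2 and 48.8 CPM (41.6 to 56.8), so the intervals of its outer bins overlapped. Ccnd1 was at 370, 323 and 253 CPM. Replication histones were at 1604, 2539 and 3270 CPM, and H1f5 alone at 478, 815 and 1067 CPM. Ccna2 was at 69.4, 109 and 152 CPM, and Fbxo5 at 116, 164 and 176 CPM. Slbp (135, 145 and 135 CPM), Uhrf1 (138, 149 and 131 CPM) and Clspn (91.9, 95.7 and 96.9 CPM) differed little over the pooled bins. Thus cells alike in R differed by a factor of 2.04 in histone RNA between the outer bins.

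Group 1 made up 57.6% of the lowest bin and 77.0% of the highest, so the bins were also taken inside each group. Cdc6 then went from 122 to 65.2 CPM in group 1 and from 132 to 81.8 CPM in group 2. Histones went from 1900 to 3681 CPM in group 1 and from 1272 to 2168 CPM in group 2. Ccna2 had 2.10 and 2.50 times the level in the highest bin that it had in the lowest. Dtl had 0.66 and 0.62 times the level. Several genes had unlike values in the groups. Ccnd1 went from 305 to 207 CPM in group 1 and from 441 to 399 CPM in group 2, where the intervals overlapped. Fbxo5 went from 145 to 199.9 CPM in group 1 and from 99.7 to 109.6 CPM in group 2, again with overlap in group 2. Clspn went from 104 to 94.3 CPM in group 1 and from 70.6 to 99.3 CPM in group 2, with overlap in both. Ccne2 went from 58.1 to 46.0 CPM in group 1, with overlap, and from 77.6 to 47.6 CPM in group 2, without it. Ung was at 31.9 CPM (24.4 to 40.8) and 9.39 CPM (5.73 to 14.5) in the outer bins of group 1, and at 19.4 and 19.9 CPM in those of group 2, where the intervals overlapped. These differences between groups were not tested.

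**Figure D5:**
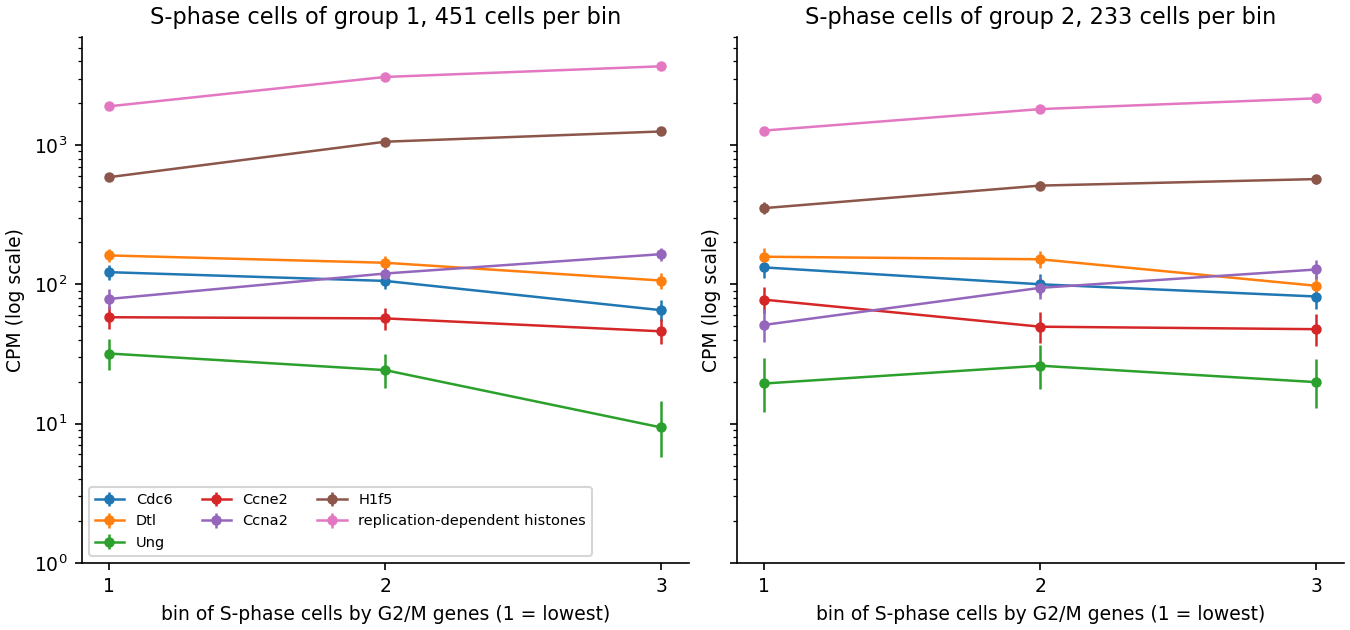
Lines give the CPM (log scale) of single genes and of the summed replication histones in 3 bins of S-phase cells ordered by G2/M genes outside the rule, from lowest (1) to highest (3), with 95% counting intervals, for group 1 on the left (451 cells per bin) and group 2 on the right (233 per bin). Cdc6 and Dtl slope down and Ccna2, H1f5 and the histones slope up in both groups, while Ung slopes down in group 1 only, from 31.9 to 9.39 CPM.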

How the data were processed

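Whole-number counts of UMIs per gene and barcode were deposited by the authors without normalization. They were made with Cell Ranger 8.0.1 on GRCm39, per the submitters' processing notes. Other filters were not given in the sources used here. The matrix held 22178 barcodes, 33696 features and 116505698 UMIs, from 500 to 23576 per barcode, and the cell filter removed 817 barcodes. The S-phase cells and the gene lists were chosen with earlier results of these data known.

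Counts were summed over cells and scaled to CPM. Genes were named by rule: the 12 R genes, and from each list up to 4 with most UMIs and up to 2 with the ratio farthest from 1 (at least 50 UMIs in S-phase cells). The rule also took the 10 highest and 10 lowest ratios among genes at 50 CPM outside R and M. Atad2, Atad5, Ncapg2, Fam111a, Cdc45, Cdt1, Pola1, Pold4, Tk1, Slbp, H2bc4, Brca1, Exo1, Cdk1, Kif23, Cks2, Acta2, Ptchd4, Epcam and Krt7 fell outside that rule and were named after their values were seen. Some genes of the lists are not reported here. Doublets were marked with Scrublet in scanpy 1.11.5 (expected rate 0.08) and kept. Groups came from 2000 variable genes, 30 components, 15 neighbours, Leiden clustering (leidenalg 0.10.2, resolution 0.5) and Ward merging. Steps were tested on simulated data. Cells are not replicates, so alternatives (cell filter, doublets, depth, size of the top share, ranking, grouping, minimum level) are given as values.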

Additional observations from a re-analysis of the deposited data

Results flagged for a closer look

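Barcodes outside the cell filter were not used in any comparison. Of these 817 barcodes, 115 (14.1%, exact binomial interval 11.8 to 16.7%) had an R at or above that of the lowest S-phase cell. Their median was 1137 UMIs, and they held 2 to 9 R UMIs each. The 12 R genes summed to 1078 CPM (1012 to 1146) over all 817 barcodes, close to the 1108 CPM of the passing cells that were not S-phase cells. At this depth a few R UMIs reach the threshold, and whether such barcodes hold S-phase cells was not tested.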

How the results depend on the processing

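The replication genes outside the rule stayed above a ratio of 1 and the G2/M genes outside the rule below 1 in every alternative run. The number of S-phase cells was 2121. It was 1038 with the stricter cell filter, 2011 after thinning, 1064 and 4211 with the top 5% and 20% of R, and 2027 without the cluster of mostly marked doublets. Of the cells picked after thinning, 67.6% were among the 2121. The ratio of replication genes was 1.21. It was 1.18 with the stricter filter and after thinning, 1.22 with the top 5%, 1.17 with R ranked within each group, 1.197 with others weighted to the group mix, 1.201 without the top 10% by M, and 1.22 without the doublet cluster. The ratio of G2/M genes was 0.793. It was 0.761 with the stricter filter, 0.803 after thinning, 0.777 with the top 20%, 0.758 with ranking within groups, 0.764 with weighting and 0.892 without the top 10% by M.

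The share of S-phase cells in group 1 was 66.1%. It was 47.2% with the stricter filter, 61.1% after thinning, 71.7% and 60.13% with the top 5% and 20%, and 48.4% with ranking within groups, which fixes it. This share also depends on how many group 1 cells pass the filter. With the stricter filter, S-phase cells still made up 12.6% of group 1 and 8.36% of group 2. Genes past 1.5-fold numbered 128. They numbered 82 with the stricter filter, 86 after thinning, 202 and 89 with the top 5% and 20%, 70 with ranking within groups, 81 with weighting and 342 with a minimum of 10 CPM. The weighting, the removal of the top 10% by M and that of the doublet cluster were chosen after seeing the data. Among 1012 log2 ratios of 92 named genes over the alternatives, 996 kept their sign. The 92 include R and M genes, whose sign the rule sets, so part of that count was fixed in advance. Of the 1012, 275 were marked as moved from their main value. These were most frequent with ranking within groups (54 of 92) and after thinning (51 of 92). The largest move was 0.68, for Krt14 with ranking within groups. No paired analysis was possible because the values came from 1 library. Depth limits the call of single cells: an S-phase cell held a median of 12 R UMIs.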
